A study of Mus musculus with 10 samples.

Results

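Messenger RNA levels of 59 genes for splicing regulators and neuronal RNA-binding proteins were examined in the cortex of adult mice that carry a Chd8 knock-in (KI) allele, set against wild-type (WT) mice. The members were chosen by gene symbol, as SR proteins, heterogeneous nuclear ribonucleoproteins (hnRNPs) and tissue-specific splicing regulators, and all 59 were found among the 13661 genes of the authors' deposited table. The rule itself uses no measured value, although earlier results of these data were known when the list was made. The series holds 5 KI and 5 WT libraries, each made from poly(A) RNA of the cortex of 1 male at 8 weeks of age. The series title describes the allele as a model of duplication of Chd8, a chromatin remodeller tied to autism. The labels say nothing of how the allele was built, of the strain or of the number of founder lines.

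Pre-mRNA splicing is steered by proteins that bind exons and introns near splice sites. SR proteins carry arginine-serine repeats and mostly favour exon inclusion, and many hnRNPs oppose them or package the nascent transcript. In neurons a further layer of tissue-specific proteins (Rbfox, Nova, neuronal ELAVL, CELF, PTBP2 and SRRM4) sets the exons of synaptic proteins and channels, and the replacement of PTBP1 by PTBP2 during differentiation is a known step in making a neuron. Many of these genes also regulate their own messages through poison exons that send the transcript to nonsense-mediated decay. Exon use was not measured in the values described here, which are for whole genes.

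The authors' deposited table gives for each gene the mean normalised count over all 10 libraries, 1 log2 fold change with its standard error (SE), and a Wald test. Values per library were not analysed here, so KI and WT levels cannot be shown apart and the spread within a genotype is seen only through the SE. Which genotype is on top of the fold change is not stated. It is read here as KI over WT, since Chd8 is then the higher one, at 1.40-fold in the authors' deposited table (log2 fold change 0.49, SE 0.10, adjusted p = 0.00444 by the DESeq2 Wald test). Every sign below rests on that reading. Intervals are 95% normal intervals for single genes. The labels do not say whether animals shared a litter or a batch, and p-values measure only the spread between these samples. In whole tissue, fewer cells of a type and less RNA per cell cannot be told apart. The defining genes of cortical excitatory neurons were all listed, with mean normalised counts from 487 for Foxp2 to 28078 for Slc17a7 in the authors' deposited table.

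No member passed the threshold of an adjusted p of 0.05 in either direction in the authors' deposited table (DESeq2 Wald test; 0 of 59). The background was low as well, at 0.0732% of 13660 genes, with 0.00732% higher in KI and 0.0659% lower. Without adjustment, 1 of 59 members had a p under 0.05, the higher Hnrnpr, and none was lower. That is 1.69% of the members, beside 3.22% of all genes (1.34% higher, 1.88% lower). The adjusted p of every member was 0.99986.

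The members' fold changes were small. Their log2 values ran from -0.12 for Celf6 to 0.13 for Srrm4 in the authors' deposited table, and 55 of 59 lay within ±0.1, beside 76.0% of all genes. The median log2 fold change was 0.016 over the members and 0.0025 over all genes. It was 0.0075 with the trend on mean count removed, where 34 members were positive, and 0.010 without the SR proteins. A positive sign was given to 39 of 59 members (66.1%) and to 51.6% of all genes. These shares are a description, since genes of a list are not independent replicates.

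The precision of the authors' deposited table sets how much change could have gone unseen. The median SE was 0.061 for members and 0.089 for all genes, and the members were more abundant, with a median mean normalised count of 2583 against 549 for all genes. The 95% interval lay within ±0.2 on the log2 scale for 44 of 59 members, beside 37.5% of all genes. It lay within ±0.5 for 58 of 59, beside 88.5% of all genes. For 58 members, its upper end was below the log2 fold change of Chd8, the exception being Srrm2. Of all genes 93.1% had an upper end below that value. Set against the lower end of the Chd8 interval, a log2 value of 0.29, the count was 55 of 59 members, beside 10582 of all 13660 genes tested. The smallest absolute Wald score among the called genes was 4.15. At that score an estimated log2 change of 0.25, or 1.19-fold, was needed at the members' median SE. The range was from 0.13 for Hnrnpul2 to 1.38 for Srrm2. These are sizes that an estimate must reach, and not a boundary between seen and unseen changes. A true change of such a size or somewhat larger could be missed, and a smaller one could pass.

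**Figure D1:**
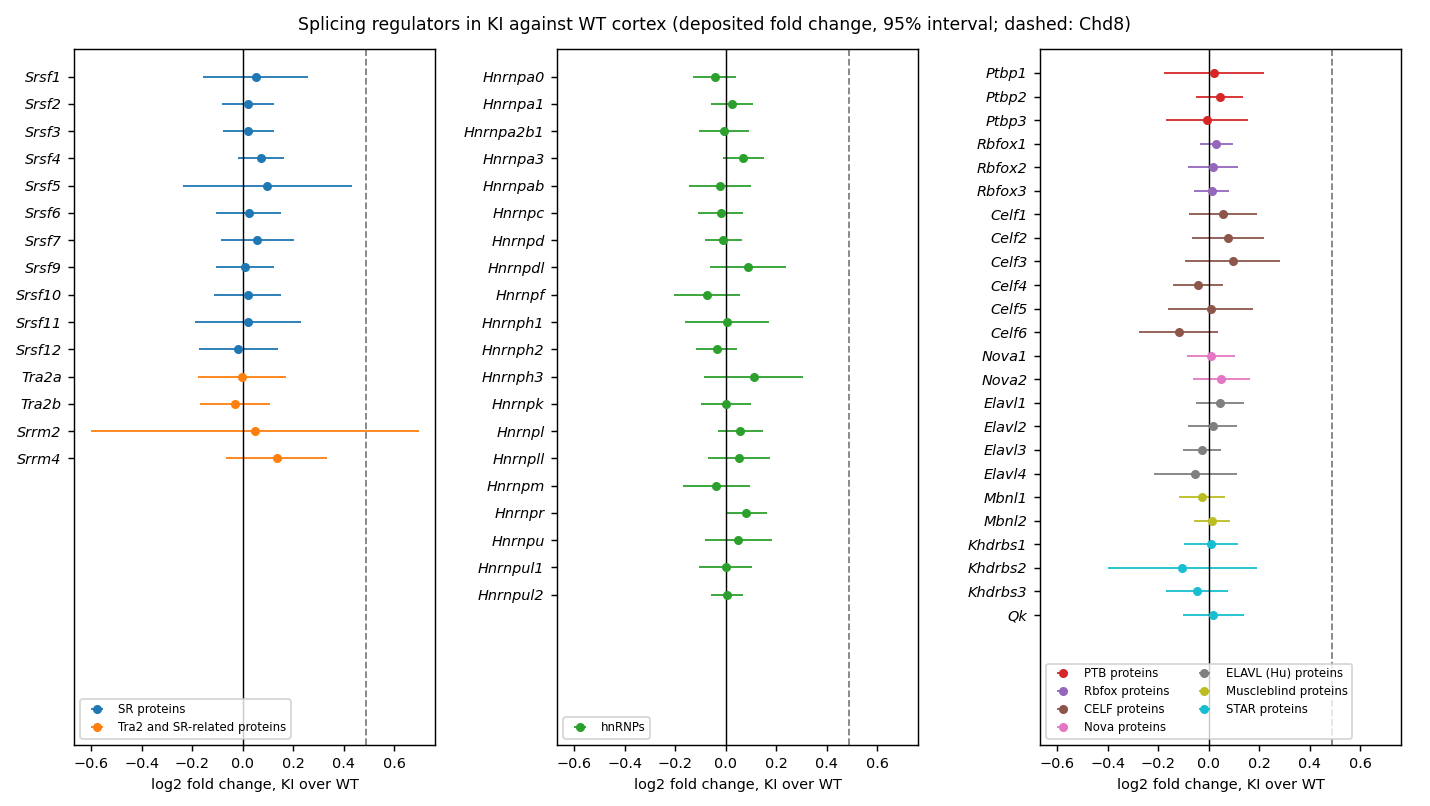
Log2 fold change of each of the 59 members, KI over WT, as points with 95% intervals from the authors' deposited table, coloured by group; the solid line marks 0 and the dashed line the log2 fold change of Chd8 (0.49). The points lie between -0.12 and 0.13, and the interval of Srrm2 is the only one among the members that reaches the dashed line.

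Levels were compared between genes as mean normalised counts per kilobase of transcript, from the authors' deposited table and the length of a single annotated transcript per gene. The counts are for whole genes, so the order of genes depends in part on which transcript was chosen. These levels average KI and WT libraries together, so they describe the tissue and not the genotype, and their spread over libraries is unknown. They ran from 62.8 per kb for Khdrbs2 to 4785 per kb for Hnrnpa2b1. The 5 most abundant members by this measure were Hnrnpa2b1, Celf4 (2890 per kb), Rbfox1 (2564 per kb), Srsf5 (2355 per kb) and Rbfox3 (2141 per kb). Of these 5, Celf4, Rbfox1 and Rbfox3 are tissue-specific regulators, Hnrnpa2b1 is an hnRNP and Srsf5 an SR protein. The 5 least abundant were Khdrbs2, Ptbp3 (89.9 per kb), Hnrnph3 (108 per kb), Srrm4 (118 per kb) and Srsf12 (132 per kb).

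**Figure D2:**
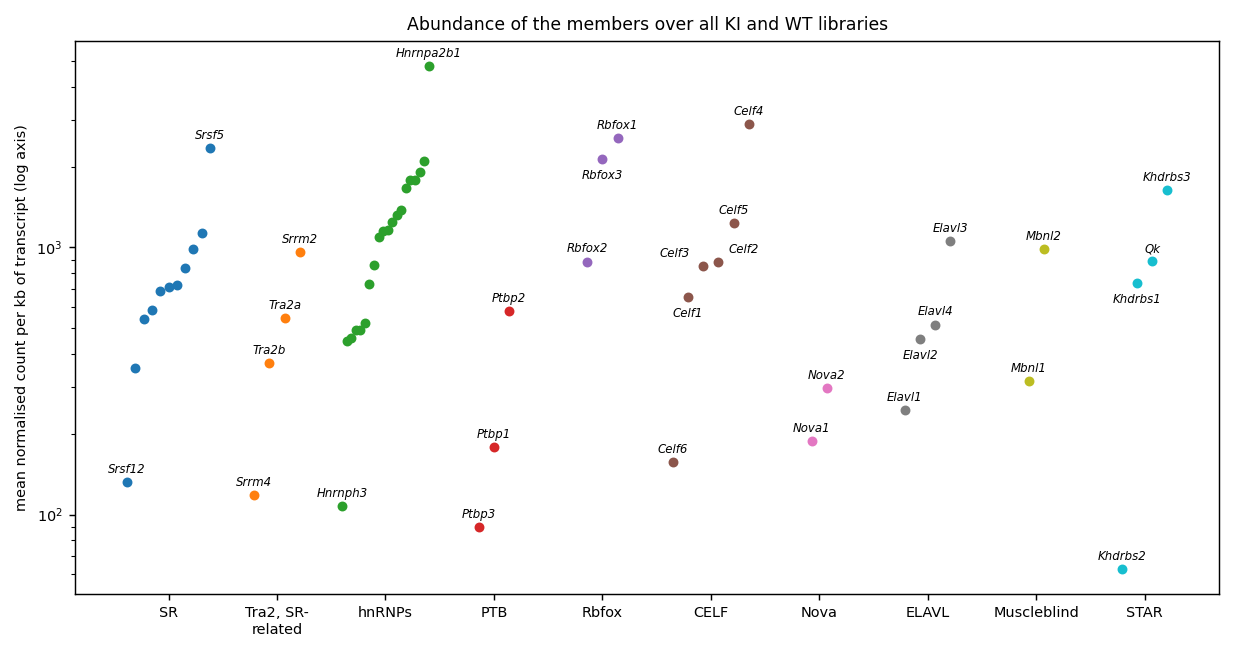
Mean normalised count per kilobase of transcript over all 10 KI and WT libraries (log axis) for the 59 members, grouped by family, with each point 1 gene; in families of more than 6 genes the most and the least abundant are named. Hnrnpa2b1 is highest at 4785 per kb and Khdrbs2 lowest at 62.8 per kb.

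SR proteins, which recognise exonic enhancers and recruit the spliceosome, had 10 of 11 members with a positive log2 fold change in the authors' deposited table (median 0.023, range -0.017 to 0.098), and none passed the threshold. Srsf4, the SR protein with the smallest p, stood at 0.073 (SE 0.046, unadjusted p = 0.112) in the authors' deposited table, an interval of 0.988 to 1.12 of the WT level. The founding SR protein gene Srsf1, a proto-oncogene, stood at 0.051 (SE 0.11) in the authors' deposited table. Srsf2, whose product recognises exonic enhancers in a broad range of genes, stood at 0.021 (SE 0.053) and Srsf3, the smallest SR protein, at 0.023 (SE 0.051) in the authors' deposited table. Both intervals ended at 1.09 of the WT level. Srsf6 (0.025, SE 0.066) and Srsf7 (0.058, SE 0.073), classical SR proteins too, were not called either in the authors' deposited table. Srsf9 stood at 0.0098 (SE 0.059) and Srsf10, a repressor when dephosphorylated, at 0.019 (SE 0.068) in the authors' deposited table. Srsf11 stood at 0.021 with a wider SE of 0.11 in the authors' deposited table. Srsf12, the rarest member of this group at 132 per kb, had the only negative sign among the SR proteins (-0.017, SE 0.080) in the authors' deposited table. The interval of Srsf5, the most abundant at 2355 per kb, was the widest of the 11 and reached from 0.849 to 1.35 of the WT level (log2 fold change 0.098, SE 0.17, authors' deposited table).

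Among the Tra2 and SR-related genes, signs were split 2 and 2 and none passed. Tra2a and Tra2b encode the mammalian homologues of a Drosophila sex determination factor and promote inclusion of exons rich in GAA repeats. They stood at -0.0023 (SE 0.089) and -0.030 (SE 0.070) in the authors' deposited table. Srrm4, the neuron-specific activator of microexons, had the largest positive log2 fold change of all members, 0.13 (SE 0.10, unadjusted p = 0.187), with an interval of -0.065 to 0.33 on the log2 scale in the authors' deposited table. Srrm2, a scaffold of nuclear speckles, stood at 0.048 with the widest SE of all members, 0.33, so that its interval of 0.659 to 1.62 of the WT level allows a change larger than that of Chd8 in either direction (the authors' deposited table).

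The hnRNPs, which coat nascent transcripts, were the group with the most members, 20, and their median SE was 0.050. Of these, 11 were positive and 9 negative in the authors' deposited table, with a median log2 fold change of 0.0029 and a range from -0.074 to 0.11. Hnrnpr, which encodes a protein of neuronal mRNA transport and splicing, stood at 0.082 (SE 0.042, unadjusted p = 0.0490, adjusted p = 0.99986 by the DESeq2 Wald test) in the authors' deposited table. Its 95% interval ran from 0.00036 to 0.16 on the log2 scale, the only one of the 59 that did not contain 0. Hnrnpa3 followed at 0.070 (SE 0.041, unadjusted p = 0.0883) in the authors' deposited table. On the lower side, Hnrnpf, a binder of G-rich sequence, stood at -0.074 (SE 0.067, unadjusted p = 0.267) and Hnrnpa0 at -0.043 (SE 0.044, unadjusted p = 0.324) in the authors' deposited table. None of these is past the threshold.

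The estimates of the classical splicing repressors of the A group did not share a sign. Hnrnpa1 stood at 0.025 (SE 0.043) and Hnrnpa2b1, which also sorts RNA in dendrites and exosomes, at -0.0065 (SE 0.050) in the authors' deposited table. The related genes Hnrnpab (-0.022, SE 0.062), Hnrnpd (-0.0094, SE 0.038) and Hnrnpdl (0.089, SE 0.077) spread on both sides of 0 in the authors' deposited table. The G-run binders Hnrnph1 (0.0046, SE 0.085) and Hnrnph2 (-0.035, SE 0.042) were close to 0 in the authors' deposited table, and the rarer Hnrnph3, at 108 per kb, stood at 0.11 (SE 0.10). Hnrnpk, a poly(C)-binding protein, had a log2 fold change of 0.0011 (SE 0.050) in the authors' deposited table. Hnrnpl and its paralog Hnrnpll, which bind CA repeats, stood at 0.059 (SE 0.045) and 0.051 (SE 0.063) in the authors' deposited table. Hnrnpm (-0.037, SE 0.067), Hnrnpu, a scaffold attachment factor linked to epilepsy (0.050, SE 0.068), and Hnrnpul1 (-0.00022, SE 0.054) were likewise not called in the authors' deposited table. Hnrnpul2 had the tightest estimate of all 59, 0.0055 (SE 0.032), an interval of 0.961 to 1.05 of the WT level in the authors' deposited table.

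Hnrnpc, whose product binds uridine tracts and keeps cryptic exons out of mRNA, is the member closest to Chd8 in the genome. In the RefSeq annotation of GRCm38 it lies on chromosome 14 from 52073377 to 52104039, and Chd8 on the same chromosome from 52198151 to 52258042, a gap of 94.1 kb with 3 annotated genes. Its log2 fold change was -0.020 (SE 0.046) in the authors' deposited table, an interval of 0.926 to 1.05 of the WT level. Supt16, a histone chaperone subunit gene and the 1 measured gene between them, stood at -0.013 (SE 0.058) in the authors' deposited table. Neither was called.

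Grouped here as tissue-specific regulators were 24 genes of 7 families: Rbfox, PTB, CELF, Nova, ELAVL, Muscleblind and STAR. The families were taken whole, so broadly expressed genes such as Elavl1 and Ptbp1 are counted, while Srrm4 is counted with the SR-related genes. These 24 had 16 positive and 8 negative log2 fold changes in the authors' deposited table, with a median of 0.013. None passed with or without adjustment. The Rbfox proteins bind GCATG motifs around neuronal and muscle exons, and Rbfox3 is the antigen NeuN that marks neurons. Rbfox1 stood at 0.031 (SE 0.034), Rbfox2 at 0.017 (SE 0.051) and Rbfox3 at 0.012 (SE 0.036) in the authors' deposited table. The interval of Rbfox1, itself an autism-associated gene, was 0.976 to 1.07 of the WT level, and that of Rbfox3 was 0.961 to 1.06, both from the values in the authors' deposited table. By level per kb the order was Rbfox1, Rbfox3 and Rbfox2, the last at 886 per kb.

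The polypyrimidine tract binding proteins differed in level, with the neuronal Ptbp2 at 576 per kb, Ptbp1 at 179 per kb and Ptbp3 at 89.9 per kb. Ptbp1, the repressor that neurons shut off, stood at a log2 fold change of 0.021 (SE 0.10), Ptbp2, its neuronal paralog, at 0.045 (SE 0.048) and Ptbp3 at -0.0073 (SE 0.083) in the authors' deposited table. All 3 intervals contained 0.

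CELF proteins bind GU-rich sequence in introns and 3′ ends, and their family held the widest range among the tissue-specific regulators. Celf6 had the lowest log2 fold change of all 59 members, -0.12 (SE 0.080, unadjusted p = 0.140), with an interval of 0.827 to 1.03 of the WT level in the authors' deposited table. It is also the rarest of the family, at 157 per kb. Celf3 stood at 0.095 (SE 0.096), Celf2 at 0.078 (SE 0.072) and Celf1 at 0.057 (SE 0.068) in the authors' deposited table. Celf4, the most abundant at 2890 per kb and known in mice for seizures on its loss, stood at -0.042 (SE 0.051), and Celf5 at 0.0078 (SE 0.085) in the authors' deposited table. All 6 intervals contained 0.

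The Nova proteins bind clusters of short CA-containing motifs and regulate synaptic exons. Nova1 stood at 0.011 (SE 0.049) and Nova2, the more abundant at 297 against 189 per kb, at 0.050 (SE 0.057) in the authors' deposited table. The ELAVL or Hu proteins bind AU-rich sequence and stabilise mRNA. Elavl3 was the most abundant at 1059 per kb and Elavl1, the ubiquitous HuR, the least at 246 per kb. Their log2 fold changes were 0.044 (SE 0.049) for Elavl1, 0.016 (SE 0.049) for Elavl2, -0.026 (SE 0.039) for Elavl3 and -0.052 (SE 0.084) for Elavl4 in the authors' deposited table. The estimates of the 3 neuronal genes did not share a sign, but all 3 intervals contained 0.

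The Muscleblind genes, known from myotonic dystrophy, had narrow intervals. Mbnl2, the more abundant in cortex at 988 against 317 per kb, stood at 0.014 (SE 0.037) and Mbnl1 at -0.025 (SE 0.046) in the authors' deposited table. Among the STAR proteins, Khdrbs1 (Sam68) stood at 0.0092 (SE 0.054) and Khdrbs3 (SLM2, a regulator of neurexin splicing) at -0.047 (SE 0.063) in the authors' deposited table. Khdrbs2 (SLM1) was the rarest member of all, with a mean normalised count of 143. Its log2 fold change of -0.10 (SE 0.15) left an interval of 0.759 to 1.14 of the WT level in the authors' deposited table. Qk, the quaking gene of glia and a regulator of myelin messages, stood at 0.018 (SE 0.061) in the authors' deposited table. Its interval of -0.10 to 0.14 on the log2 scale contains both 0 and the median of the 12 markers of mature oligodendrocytes, -0.081, and does not tell them apart.

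Members of like abundance differed in their standard errors. Each SE of the authors' deposited table was set against those of the genes nearest in mean normalised count. By this comparison 7 of 59 members (11.9%) lay above the 90th percentile, beside 9.91% of all genes. They were Srrm2, at 6.77 times the median SE of its abundance class, Srsf5 at 3.07 times, Srsf1 at 1.92 times, Srsf11 at 1.77 times, Celf3 at 1.70 times, Celf5 at 1.63 times and Hnrnph1 at 1.54 times. Below the 25th percentile lay 20 members (33.9%), beside 24.8% of all genes. Of the 20 hnRNPs 8 did so, as did 3 of the 4 ELAVL genes and both Muscleblind genes. Chd8 itself lay at the 95.2nd percentile. Which libraries carry the spread cannot be read from the authors' deposited table.

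**Figure D3:**
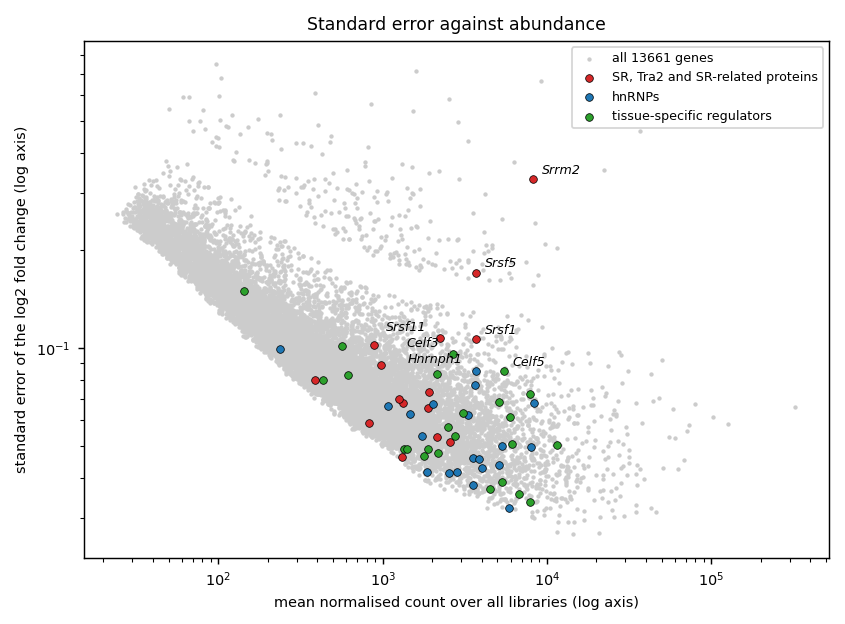
Standard error of the log2 fold change against mean normalised count, both on log axes, for all 13661 genes (grey) and the 59 members (coloured by role); members above the 90th percentile of their abundance class are named. Srrm2 (SE 0.33) and Srsf5 (SE 0.17) sit far above the cloud of genes of like abundance.

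Genes that work with these regulators were followed in 4 lists with 138 genes, of which 137 were measured and none passed the threshold in the authors' deposited table. Over these lists 1 gene had an unadjusted p under 0.05. The core spliceosome list, with the U1, U2, U4, U5 and U6 particle proteins and their helicases, had 22 of 58 members positive and a median log2 fold change of -0.017. On the lower side, those with the smallest p were Sf3a1, a U2 particle subunit, at -0.12 (SE 0.060, unadjusted p = 0.0534) and Snrpa, of the U1 particle, at -0.13 (SE 0.067, unadjusted p = 0.0539) in the authors' deposited table. On the higher side, Prpf4, of the U4/U6 particle, stood at 0.10 (SE 0.079, unadjusted p = 0.194) in the authors' deposited table.

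Kinases and the import receptor of SR proteins had 7 of 10 members positive (median 0.056 in the authors' deposited table). Clk1, a kinase that releases SR proteins from speckles, stood at 0.16 (SE 0.13) and Srpk3 at 0.36 (SE 0.28, mean normalised count 99.4) in the authors' deposited table. Clk3 at -0.061 (SE 0.092) and Srpk2, an SR protein kinase, at -0.034 (SE 0.043) had the smallest p on the lower side in the authors' deposited table. The exon junction complex and nonsense-mediated decay list had 11 of 18 members positive (median 0.020). It was led by Smg9 at -0.14 (SE 0.089), Rnps1 at 0.061 (SE 0.048), Rbm8a at -0.081 (SE 0.074) and Smg8 at 0.078 (SE 0.086) in the authors' deposited table.

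In the list of other RNA-binding proteins, 32 of 51 measured genes were positive (median 0.025). The 1 gene with an unadjusted p under 0.05 was Cirbp, the cold-inducible RNA-binding protein, at 0.17 (SE 0.081, unadjusted p = 0.0384, adjusted p = 0.99986 by the DESeq2 Wald test) in the authors' deposited table. Rbmx followed at 0.16 (SE 0.087, unadjusted p = 0.0687) in the authors' deposited table. Caprin1, of neuronal RNA granules, at -0.060 (SE 0.037) and Pcbp3 at -0.068 (SE 0.056) led the lower side in the authors' deposited table. Mbnl3, the remaining Muscleblind gene, was not among the genes tested.

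**Figure D4:**
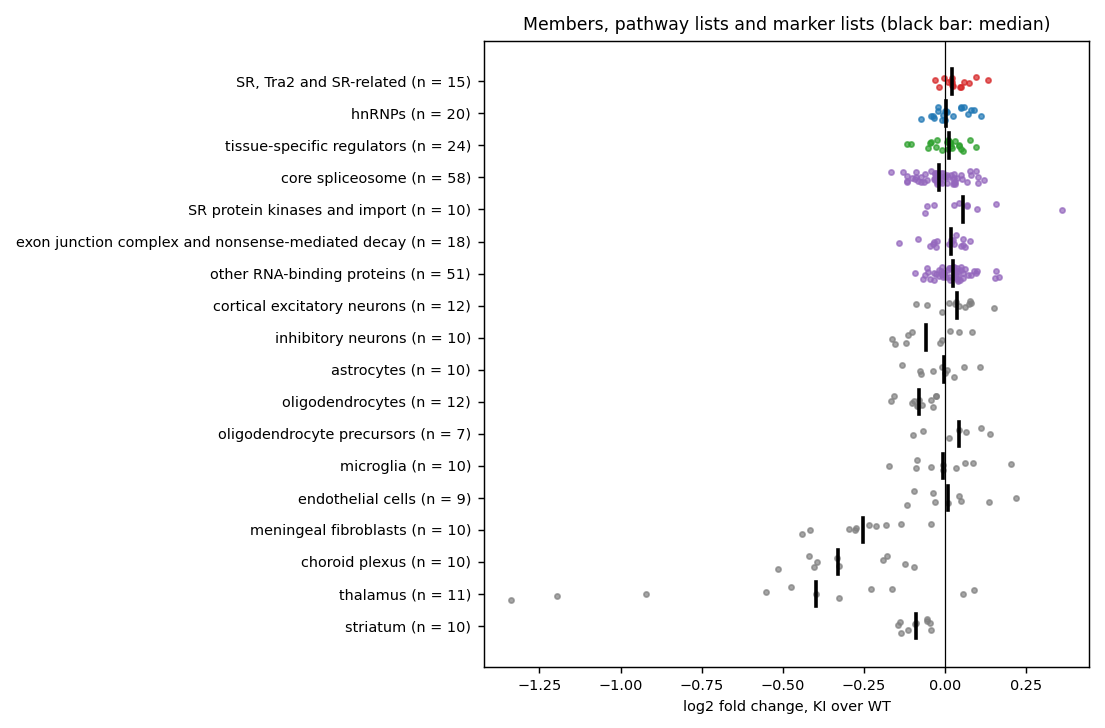
Log2 fold change, KI over WT, of each measured gene (points) in the members' 3 role groups, the 4 pathway lists and the 11 marker lists, with the median as a black bar; vertical scatter within a row carries no meaning. The members and pathway lists are centred near 0, whereas the thalamus, choroid plexus and meningeal fibroblast medians lie at -0.40, -0.33 and -0.25. Members and lists were chosen with earlier results of these data known.

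Markers of tissue next to the cortex had medians further from 0 than the members' 0.016. All marker lists were chosen with earlier results of these data known, so their medians and calls are a description and not a test. The thalamus list had a median log2 fold change of -0.40 (2 of 11 positive) with 4 of 11 genes past the threshold, all lower. The meningeal fibroblast list had -0.25 with 1 of 10 past it, Igf2, which was lower too. The choroid plexus list had -0.33 with none of 10 past it. Over all 13660 genes tested, 9 were called lower. Without adjustment, 8 of 11 thalamus, 5 of 10 meningeal and 7 of 10 choroid plexus genes had a p under 0.05, all lower. The share over all genes was 3.22% (DESeq2 Wald test). The striatum list had a median of -0.090 and the oligodendrocyte list of -0.081, with 0 of 10 and 0 of 12 genes positive, and 2 oligodendrocyte genes had an unadjusted p under 0.05. Cortical excitatory neurons stood at a median of 0.038 (9 of 12 positive), inhibitory neurons at -0.059 (3 of 10) and oligodendrocyte precursors at 0.044 (5 of 7). Calb2 (-0.16) was on both the inhibitory neuron list and the thalamus list. Medians nearest 0 were those of astrocytes at -0.0038 (5 of 10 positive), microglia at -0.0055 (4 of 10) and endothelial cells at 0.0085 (5 of 9). An unadjusted p under 0.05 was also found for 1 precursor gene (Pdgfra, higher), 1 astrocyte gene (Aldh1l1, lower) and 1 endothelial gene (higher). No gene of the striatal, neuronal, glial and endothelial lists passed the threshold. Their part in the members' values was not tested.

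Transcript length moved with the fold changes over the whole table, where Spearman's rho of log2 fold change and length was 0.233 across 13096 genes. Across the 59 members it was 0.142, and with abundance 0.081. These are correlations across genes of 1 comparison, which share libraries and are not independent replicates. With a smooth length trend removed, 36 of 59 members were positive and their median was 0.012.

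Counting itself is uncertain for some members, since the use of strand and the handling of shared reads are not given. Annotated pseudogenes elsewhere in the genome matched 14 of the 59 at 95% identity or more over at least 200 bases. Of the hnRNPs 7 were among them, with 1740 matching bases for Hnrnpr and 1117 for Hnrnpa1. Hnrnpa3 matched 28 annotated genes elsewhere, over up to 1488 bases, and Hnrnpf 8, over up to 1248 bases. Exons of 20 members overlapped those of another annotated gene. Hnrnpr, the member with the smallest p, overlapped a long non-coding RNA on the opposite strand over 715 bases, and Srsf4 an opposite-strand transcript over 1532 bases.

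In the RefSeq annotation of GRCm38, the assembly behind mm10, Hnrnpr (gene 74326) lies on chromosome 4 from 136310942 to 136345981 and Srsf4 (57317) on the same chromosome from 131873530 to 131901725. Hnrnpa3 (229279) lies on chromosome 2 from 75659105 to 75669407. Celf6 (76183) is on chromosome 9 from 59578287 to 59609033, Hnrnpf (98758) on chromosome 6 from 117900340 to 117925622 and Hnrnpa0 (77134) on chromosome 13 from 58125879 to 58128556. Srrm2 (75956) lies on chromosome 17 from 23790527 to 23824741, Srsf5 (20384) on chromosome 12 from 80945495 to 80950507 and Srrm4 (68955) on chromosome 5 from 116439268 to 116592562. Values are for whole genes, so exons, introns and UTRs were not told apart.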

How the data were processed

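Poly(A) RNA of adult cortex was sequenced in 5 KI and 5 WT libraries, grouped by sample title. Tools named in the submitters' processing notes were Trimmomatic 0.39, HISAT2 2.1.0, featureCounts 2.0.0 and DESeq2 1.26.0, with build mm10. No label states their settings, annotation, filter or model formula. Per the file headers, the authors deposited the mean normalised count (a signal value over all libraries), the log2 fold change and its standard error, the Wald score, and the p-value with its adjusted p-value. On checking, dividing each log2 fold change by its standard error gave the Wald score, and the adjusted p was that of a Benjamini-Hochberg adjustment over 13660 genes. Depth per library is unknown.

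RefSeq names for GRCm38 covered 13497 gene numbers. Lengths were those of a single GENCODE M21 transcript per gene (13096 genes), and near-identical transcripts were sought with BLAST 2.17.0. Trends were removed by lowess (statsmodels 0.14.6, fraction 0.3), tested on simulated data. Python 3.11.15 was used. Named genes were the 3 members per direction with the smallest p, the extremes of level per family, members with an unadjusted p under 0.05, and 2 genes per direction of each pathway list, and every other member is given with its values. A gene that this rule names in a pathway list is not reported here. Members singled out for wide errors and the genes of the closing observations were chosen after their values were seen. Members and lists were chosen with earlier results of these data known. Alternatives were count minimums, thresholds, centring, length and count trends, weighting and leaving out families.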

Additional observations from a re-analysis of the deposited data

How the results depend on the processing

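No member was called under any of the 4 alternatives that could be run. Every member had an adjusted p of 0.99986 (DESeq2 Wald test), so adjusted p thresholds of 0.1 and 0.01 could not change this count. Those thresholds called 10 and 6 of all genes. Count minimums of 50 and 200 kept 59 and 58 members and called 10 and 7 of all genes. At an unadjusted p under 0.01 in place of 0.05 the count of members was 0 in place of 1, beside 116 of all genes. The median log2 fold change of the members ran from 0.0075 to 0.018, against 0.016 as reported, over 16 alternatives. The lowest was with the trend on mean count removed and the highest without the hnRNPs. Among the 16, 10 left out a gene family and did not change the processing. Another was a mean weighted by precision, 0.013, in place of a median. The number of members with a positive sign ran from 34 to 39 over 5 alternatives. No paired analysis was possible because values per library were not analysed here. For the same reason leaving out replicates and another normalization were not run, so no value here is shown to hold without any 1 animal. Depth per library is unknown, and the standard error, widest for Srrm2, limits what each gene can show.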

Other observations

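Genes with a wide standard error for their abundance were looked at further, by a choice made after the values were seen. Ranked by the ratio of the standard error to the median of genes of like abundance, Srrm2 was the 11th of 13661 genes of the authors' deposited table. The genes named beside it are a selection and not a tested group. Ahead of Srrm2 (ratio 6.77) were Malat1 (1st, 13.8), Arc (3rd, 10.2), Meg3 (4th, 9.64), Leng8 (7th, 7.88), Snhg11 (9th, 7.32) and Miat (10th, 7.30), and Fos (12th, 6.61) came next. They include long non-coding RNAs as well as the activity-regulated genes Arc and Fos. In the 4 pathway lists 23 of 137 genes (16.8%) lay above the 90th percentile, beside 9.91% of all genes. The lists differed, with 11 of 51 other RNA-binding proteins and 5 of 10 SR protein kinase and import genes. The core spliceosome had 5 of 58 (8.62%) and the exon junction and decay list 2 of 18 (11.1%). Among the 23 genes, the highest ratios were those of Snrnp70 (3.91), Smg1 (3.63), Ddx17 (3.46), Luc7l3 (3.40) and Son (3.20), a speckle protein like Srrm2. Clk4 (2.68) and Clk1 (2.15) stood lower, as did Srsf5 (3.07) among the members.

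None of the members or pathway genes with a wide error was near the threshold. All 7 members above the 90th percentile were positive (0.0046 to 0.098, smallest unadjusted p 0.322), as were 20 of the 23 pathway genes (smallest unadjusted p 0.196) in the authors' deposited table. Over all genes, 895 of 1354 above that percentile were positive (66.1%), beside 51.6% of all genes tested, and their smallest unadjusted p was 2.89e-07. Genes past the threshold, such as Chd8, Tcf7l2, Prkcd and Tnnt1, were among them. Whether the same libraries carry the spread of these genes was not tested, since values per library were not analysed here.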
